A study of Homo sapiens with 9 samples.

Results

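TNFSF11, WNT4, TGFA and AREG encode signals that a progestin-responsive breast cell sends to its neighbours, and they were followed here on the chromatin of T47D-MTVL cells. They were taken by symbol from a table of histone H2A over 20318 rows, each a protein-coding gene, and the 4 symbols matched 5 rows because AREG is listed for 2 gene identifiers. T47D-MTVL is a human luminal breast cancer line with a reporter under the mouse mammary tumour virus promoter. All cells were kept in serum-free medium and received the synthetic progestin R5020 at 10 nM for 0, 30 or 60 min, the 0 min cells being unstimulated. Chromatin immunoprecipitation with sequencing used 4 antibodies. H2A was read at 0, 30 and 60 min, and BPTF (a subunit of the NURF remodelling complex), HP1γ (a heterochromatin protein) and LSD1 (a histone demethylase) at 0 and 30 min. Each antibody and time had 1 library, so every difference below is between libraries, with no replicate check and no p-value. The 1 line was profiled alone, RNA was not measured in these files, and the H2A signal does not report whether a gene is transcribed.

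In the mammary gland, progesterone acts on the few luminal cells that hold its receptor, and these instruct cells without the receptor through secreted or shed ligands. RANKL, encoded by TNFSF11, binds the receptor RANK and drives division through NF-κB and cyclin D1. WNT4 binds Frizzled receptors with LRP co-receptors and acts on basal and stem cells. Amphiregulin (AREG) and TGFα (TGFA) are made as membrane precursors, are released by the protease ADAM17 and bind the EGF receptor.

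On GRCh37, TNFSF11 lay on chromosome 13 (43136872 to 43181310, plus strand, 44.4 kb). WNT4 lay on chromosome 1 (22443798 to 22469459, minus strand, 25.7 kb) and TGFA on chromosome 2 (70676451 to 70780904, minus strand, 104 kb). AREG lay on chromosome 4 (75310851 to 75320726, plus strand, 9.88 kb). The other row with that symbol, identifier ENSG00000205595, was a stretch of 1892 bp farther along chromosome 4 (75484115 to 75486006), which GENCODE names AREGB. The GENCODE annotation used here, a later version than the table's, gives AREGB a longer body of 9858 bp (75480629 to 75490486), which holds that stretch.

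Within the gene bodies plus 50 kb on each side, 5 peaks were found, and none of them lay at a start site. Their central 300 bases on GRCh37, plus strand, are shown for 4 of these sites because they are the peaks listed in the windows. Only the HP1γ site at TGFA is inside a gene of the 4, and the others lie beyond a gene's end. Capitals mark the half-site of the progesterone receptor element, AGAACA on one strand and TGTTCT on the other.
TGFA, BPTF peak displaced by hormone, chr2:70659451-70659750: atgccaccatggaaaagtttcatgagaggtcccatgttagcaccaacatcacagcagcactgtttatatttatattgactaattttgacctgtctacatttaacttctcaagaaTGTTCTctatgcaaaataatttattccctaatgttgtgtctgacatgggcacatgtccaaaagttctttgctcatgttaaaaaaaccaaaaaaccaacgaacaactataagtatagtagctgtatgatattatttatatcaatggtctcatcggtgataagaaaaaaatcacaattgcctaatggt
TGFA, HP1γ peak at 0 min, chr2:70714682-70714981: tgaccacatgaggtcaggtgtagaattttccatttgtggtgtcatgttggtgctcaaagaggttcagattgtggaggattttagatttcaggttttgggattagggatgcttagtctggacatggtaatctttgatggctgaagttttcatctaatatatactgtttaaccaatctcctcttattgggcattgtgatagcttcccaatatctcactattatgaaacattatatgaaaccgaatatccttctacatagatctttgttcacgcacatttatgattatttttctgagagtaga
AREG, HP1γ peak at 30 min, chr4:75340264-75340563: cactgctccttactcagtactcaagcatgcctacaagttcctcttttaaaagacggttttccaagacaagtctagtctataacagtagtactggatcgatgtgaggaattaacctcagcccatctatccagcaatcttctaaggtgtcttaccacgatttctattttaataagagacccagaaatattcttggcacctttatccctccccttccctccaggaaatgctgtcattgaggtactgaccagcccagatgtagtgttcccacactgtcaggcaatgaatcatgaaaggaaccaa
AREGB, HP1γ peak at 30 min, chr4:75510237-75510536: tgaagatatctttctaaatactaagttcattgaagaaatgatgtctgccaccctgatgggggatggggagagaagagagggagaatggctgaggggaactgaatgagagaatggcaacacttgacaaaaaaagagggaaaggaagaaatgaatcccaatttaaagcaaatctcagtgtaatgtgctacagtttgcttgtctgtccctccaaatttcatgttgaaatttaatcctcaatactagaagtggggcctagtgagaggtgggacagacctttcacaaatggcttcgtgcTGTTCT

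The sites at TGFA (BPTF) and at AREGB each held 1 half-site, the other 2 shown held none, and the LSD1 site at WNT4, not shown, held 2. None of the 5 held the full palindromic element, which reads GNACA, any 3 bases and then TGTNC on either strand; an arm with the base beside it can form the half-site, so the searches overlap. For comparison, the central 300 bases held a half-site in 25.8% of all displaced BPTF peaks and 25.9% of all LSD1 peaks at 0 min. For HP1γ peaks the share was 23.7% at 0 min and 24.4% at 30 min. The full element was in 0.451% of the displaced BPTF peaks and 0.460% of the LSD1 peaks at 0 min. It was in 0.474% of HP1γ peaks at 0 min and 0.352% at 30 min. Among 35116 RefSeq promoters of 300 bases (build GRCh38.p14), 14.8% held a half-site and 0.390% the full element. The 6 promoters of the 4 genes held 1 half-site in all, at TGFA, and no full element. Their GC content ran from 40.3% to 85.7%, against 33.7% to 43.3% in the centres of the 5 peaks, and the shares make no allowance for GC. The matches describe letters and not binding.

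AREG differed from the other genes in how much of its sequence could be told apart from the rest of the genome. The AREG body aligned to the longer AREGB body over 9880 positions at 99.6% identity, with 10 mismatches. They lie in a duplicated segment of GRCh37 that spans 41.0 kb at each copy (75282465 to 75323487 and 75452280 to 75493261). A stretch of 60 bases inside an intron of AREG, and its counterpart in the longer AREGB body, shows how alike they are, with the base that differs in capitals.
AREG, chr4:75313944-75314003: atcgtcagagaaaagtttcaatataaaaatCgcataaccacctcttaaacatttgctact
AREGB, chr4:75483703-75483762: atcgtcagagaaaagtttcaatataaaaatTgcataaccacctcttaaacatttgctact
Of all positions in the AREG body, only 4.65% started a run of 36 bases found once in the assembly, or 7.04% with runs of 50 bases. In the listed AREGB stretch the shares were 5.22% and 9.39%. In TNFSF11, WNT4 and TGFA they were 96.9%, 99.0% and 95.9% at 36 bases.

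**Figure D1:**
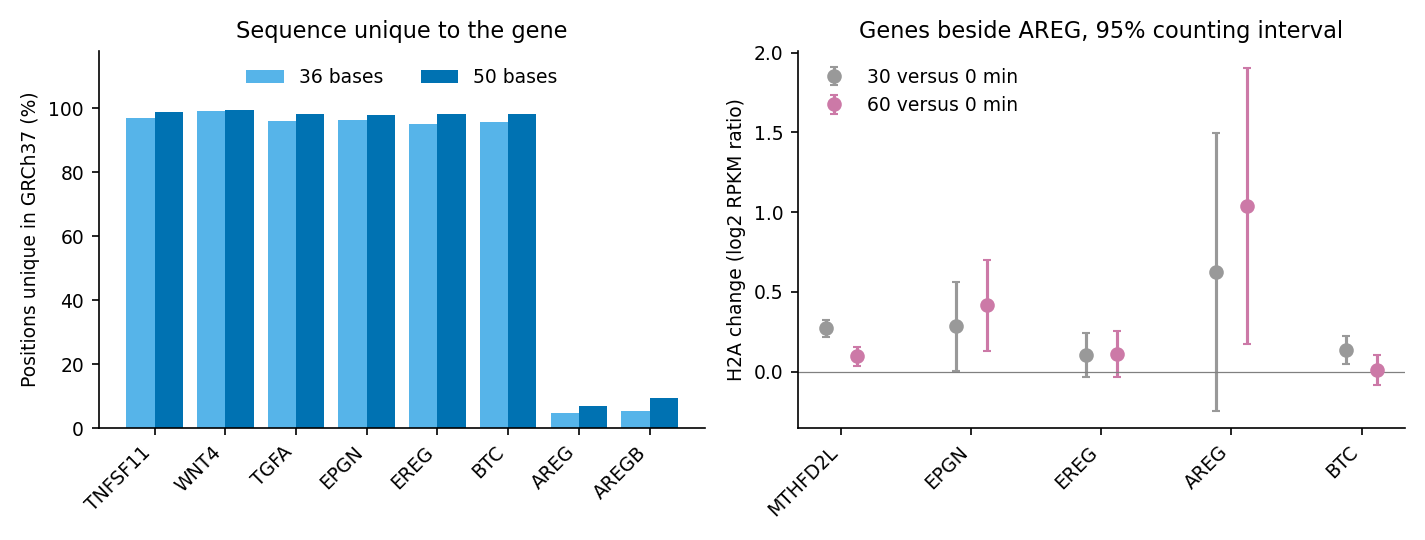
Left, the share of positions (%) whose next 36 or 50 bases occur once in GRCh37, for the 4 genes, AREGB and the EGF family neighbours of AREG; only AREG and AREGB are near 0. Right, the log2 ratio of H2A RPKM at 30 or 60 min to 0 min for the genes beside AREG, with no pseudocount, points with 95% counting intervals; the AREG intervals are the widest of those drawn.

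H2A is a core histone, and its level over a gene is given as RPKM, a read count scaled to the length of the gene and the size of the library. The H2A libraries held 140.8 M, 168.8 M and 133.1 M reads at 0, 30 and 60 min, as recovered from the steps of low RPKM values. A change is the log2 ratio of RPKM after adding 0.05, which understates the change of low genes. Its 95% counting interval covers the sampling of reads only. Levels are set side by side over time for 1 gene at a time, since the deposited values were taken to grow with a gene's number of annotated transcripts. The read numbers and counting intervals given for genes rest on this assumption, which was not tested. Of the 5 rows, 3 passed a mean RPKM of 0.1, as did 19709 rows of the table, and a gene was counted as changed past 0.5 on the log2 scale.

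Among the 3 genes that passed, 0 were past 0.5 in any of the 3 comparisons. Among all genes 2.33% were past it at 30 against 0 min (0.345% higher and 1.99% lower) and 0.888% at 60 against 0 min (0.249% higher and 0.639% lower). At 60 against 30 min the share was 1.05% (0.756% higher and 0.294% lower). A count of 0 among 3 genes is near these shares. Over all genes the median change was -0.14 at 30 min and -0.03 at 60 min, and GC-richer genes read lower (across genes, which are not independent, Spearman's rho with GC was -0.85 and -0.68). At 30 min 68 genes read higher and 392 lower past 0.5, which became 294 and 106 after centring on the median and 79 and 47 off the GC trend. At 60 against 0 min the counts were 49 and 126, then 59 and 96, and 75 and 56. At 60 against 30 min they were 149 and 58, then 79 and 93, and 66 and 66. For the 4 genes, and for the lists by their medians, values are therefore also given off the GC trend, that is, after subtracting the median change of genes of like GC content, which is the trend used in these counts.

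TNFSF11, which encodes RANKL, differed little between times. Its level was 1.56 RPKM at 0 min, 1.53 at 30 min and 1.58 at 60 min, so the 60 min library was the highest, 3.20% above the lowest. The log2 change was -0.02 at 30 min (interval -0.08 to 0.03) and 0.02 at 60 min (-0.04 to 0.08), and both intervals include 0. From 30 to 60 min it was 0.04 (-0.01 to 0.10). At 41.2% GC it lay on the trend, with 0.01 left at 30 and at 60 min and 0.00 from 30 to 60 min. Relative to the median of all genes the 30 min value was 0.12, so its sign depends on the scaling.

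WNT4, the ligand that acts on basal cells, had the lowest 30 min change of the 4 genes. It read 1.62 RPKM at 0 min, 1.39 at 30 min and 1.52 at 60 min, so the 30 min library was the lowest and the 60 min library lay between the others. The change at 30 min was -0.21 (interval -0.30 to -0.13), a level 14.2% lower. At 60 min it was -0.10 (-0.19 to -0.01), and from 30 to 60 min it was 0.12 (0.03 to 0.21). WNT4 was also the GC-richest of the 4 at 56.9%, above 87.3% of genes. The trend at that GC content was -0.32 at 30 min and -0.16 at 60 min, so off the trend WNT4 turned to 0.10 and 0.07. From 30 to 60 min it was -0.04 off the trend. Among all genes its change at 30 min stood at percentile 36.4, and at 88.5 off the trend.

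TGFA, an EGF receptor ligand, followed the same course with smaller values. It read 3.07, 2.79 and 2.97 RPKM at 0, 30 and 60 min, again lowest at 30 min. The change was -0.13 at 30 min (interval -0.19 to -0.08) and -0.05 at 60 min (-0.11 to 0.01). From 30 to 60 min it was 0.08 (0.03 to 0.14). At 43.9% GC the trend itself was -0.13 at 30 min, and -0.01 was left, at percentile 43.8 of all genes. Off the trend the change was -0.03 at 60 min and -0.02 from 30 to 60 min. Centred on the median of all genes its 30 min value was 0.01, so the direction turned with the scaling.

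AREG, the other EGF receptor ligand, was listed at 0.035 RPKM at 0 min, 0.054 at 30 min and 0.072 at 60 min. These levels are below the 0.1 filter, and the AREGB row was listed at 0 in all 3 libraries. Divided by 3 annotated transcripts, the AREG values stood for 16.2, 30.0 and 31.5 reads, against 4877 reads for TNFSF11 at 0 min on the same basis. The part of the low share of unique sequence in these levels was not tested. The log2 change was 0.29 at 30 min (interval -0.10 to 0.69) and 0.52 at 60 min (0.11 to 0.94). Without the added 0.05, the ratio to 0 min was 1.54 at 30 min and 2.06 at 60 min, or 0.63 and 1.04 on the log2 scale (counting standard errors 0.44 and 0.44). AREG is GC-poor at 36.9%, and off the trend it had 0.11 at 30 min and 0.46 at 60 min, the latter short of 0.5, while the plain 60 min change was past it. With 0.5 RPKM added in place of 0.05, the 60 min change was 0.10.

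**Figure D2:**
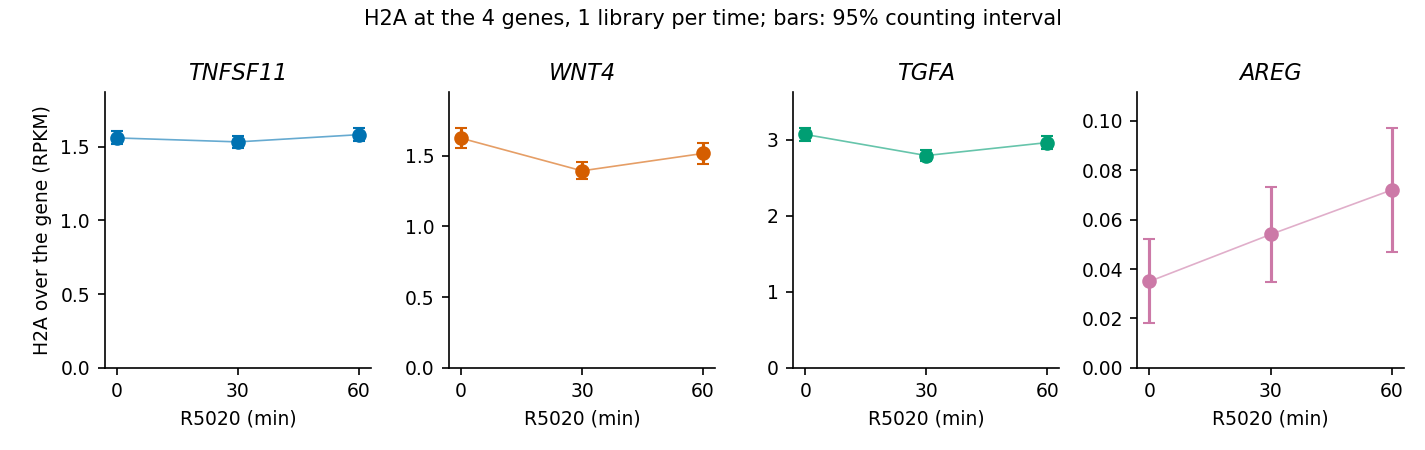
H2A level (RPKM, vertical axis from 0, a scale for each gene) at 0, 30 and 60 min of R5020, 1 library per time; bars are 95% counting intervals from reads divided by transcript number. WNT4 and TGFA were lowest at 30 min, TNFSF11 stayed between 1.53 and 1.58, and AREG lay below 0.1 throughout.

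In order of the 30 min change, the genes ran from WNT4 (-0.21) through TGFA (-0.13) and TNFSF11 (-0.02) to AREG (0.29). The counting intervals of WNT4 and TGFA overlap, and the wide interval of AREG overlaps those of both TGFA and TNFSF11. Those of TGFA and TNFSF11 barely miss each other, the first ending at -0.080 and the second starting at -0.078. Off the GC trend these genes had -0.01 and 0.01. The same order held for GC content, from 56.9% through 43.9% and 41.2% to 36.9%. At 60 min the order was again WNT4, TGFA, TNFSF11 and AREG, and this comparison shares the 0 min library with the other.

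**Figure D3:**
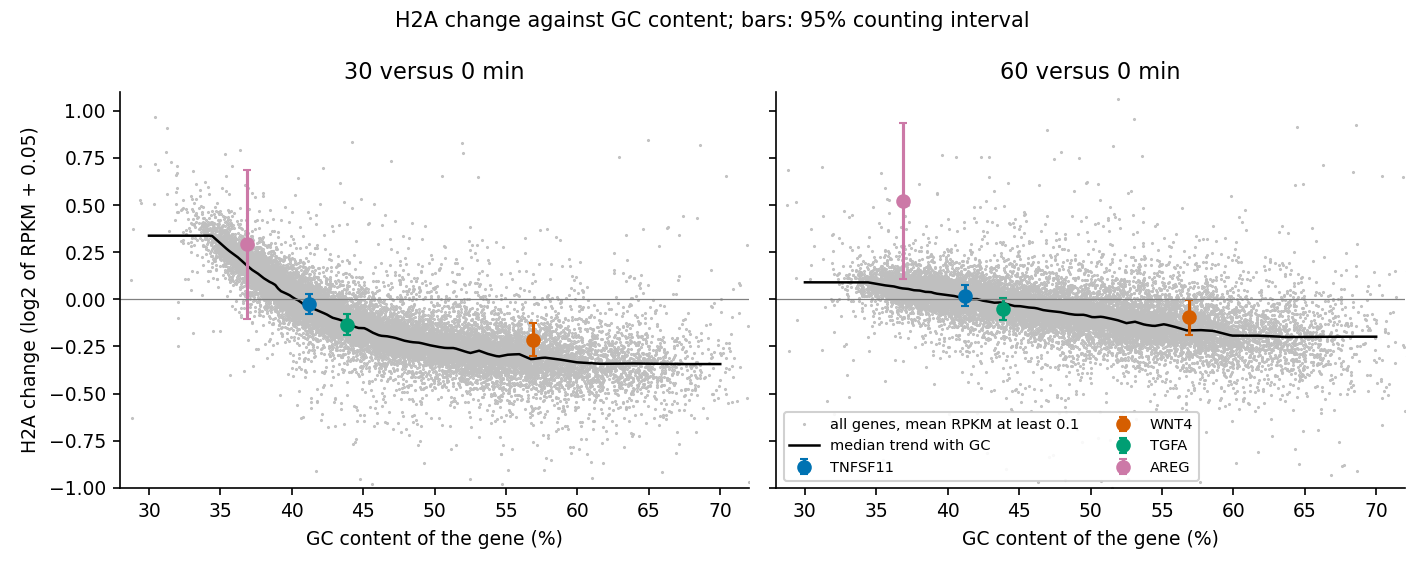
H2A change (log2 of RPKM plus 0.05) against GC content of the gene (%) at 30 and 60 min; grey points are the genes that passed the RPKM filter (points outside the axes are not drawn), the line is the median trend, coloured points are the 4 genes with 95% counting intervals. TNFSF11 and TGFA lie on the line, WNT4 lies 0.10 above it at 30 min, and AREG lies 0.46 above it at 60 min.

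The genes beside AREG carry further EGF family ligands. EPGN (epigen) read 1.81 RPKM at 0 min, 2.21 at 30 min and 2.42 at 60 min, the same order of libraries as AREG. Its change was 0.28 at 30 min and 0.41 at 60 min, and off the GC trend -0.01 and 0.33. EPGN held more reads than AREG, 175 at 0 min and 221 at 60 min per transcript, with counting standard errors of 0.14 and 0.15. EREG (epiregulin), which lies between them, had 0.10 at both times, and off the trend -0.10 and 0.04. BTC (betacellulin) had 0.12 and 0.01, and off the trend -0.02 and -0.04. Unlike AREG, 95.1% to 96.3% of positions in these 3 genes were unique at 36 bases. MTHFD2L, a folate enzyme gene next to EPGN, had 0.27 at 30 min and 0.10 at 60 min, with 0.04 and 0.03 off the trend.

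The peak lists placed few peaks at these genes. Summed over the 6 lists, the 5 windows held 5 peaks, where the density of each list on the same chromosome gives 11.2. TNFSF11 held none of 2.22 given by density, WNT4 held 1 of 5.61 and TGFA held 2 of 1.51. AREG and AREGB held 1 each, of 0.97 and 0.90. A window with no peak in any list, as at TNFSF11, occurred at 20.8% of all genes, and a peak in 1 list only, as at WNT4, AREG and AREGB, at 20.5%.

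**Figure D4:**
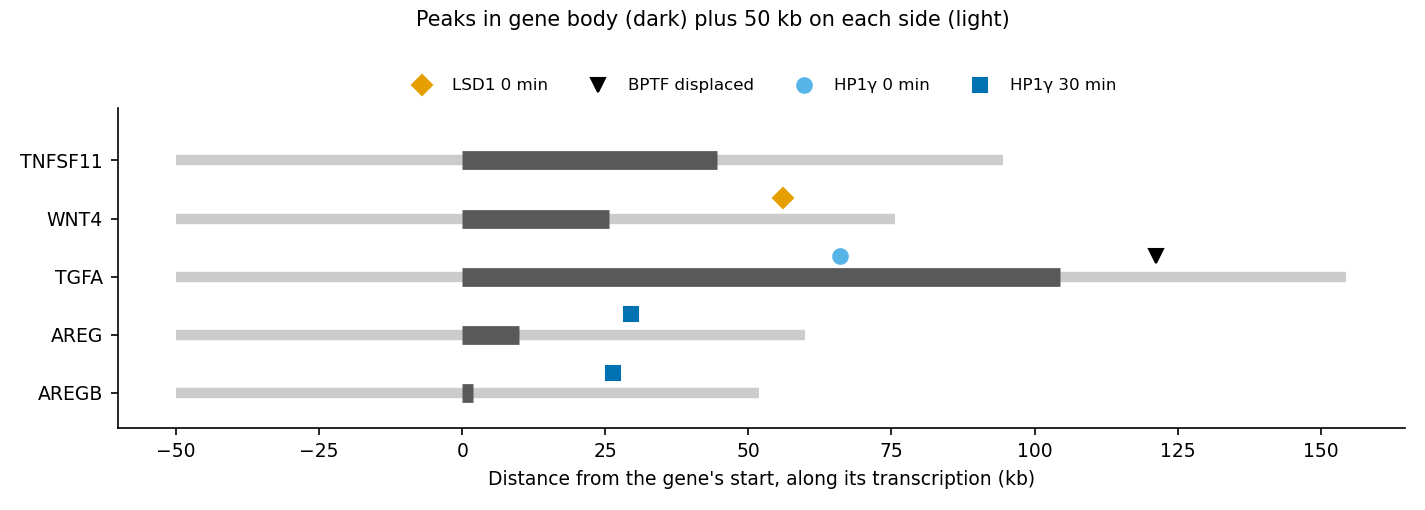
Peak centres of each list (symbols) by distance from the gene's start along its transcription (kb); dark bars are gene bodies and light bars the 50 kb on each side. The HP1γ site at TGFA is inside the gene body, the other 4 lie beyond the gene's end, and TNFSF11 has none.

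BPTF, which the labels sort into peaks displaced or recruited by hormone, had a listed peak in the window of 1 of the 4 genes. A displaced peak of 571 bp lay downstream of TGFA (chromosome 2, 70659316 to 70659886), 16.6 kb past its end and between genes, and 34.5% of its bases were G or C. A displaced peak in the window was a feature of 18.3% of all genes, and a recruited one, found at 0 of the 4, of 12.1%. From the TNFSF11 start the nearest BPTF peaks were 1571 kb (displaced) and 601 kb (recruited) away, with 76.6% and 51.8% of genes nearer, so the recruited distance was close to the median of 557 kb. From the WNT4 start they were 3059 kb and 4655 kb away, with 86.6% and 90.8% of genes nearer.

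An HP1γ peak was listed in the TGFA window at 0 min only, and in the AREG and AREGB windows at 30 min only. With 1 library per time, a peak absent from a list does not show loss or gain. At 0 min 53.4% of all genes had an HP1γ peak in the window, and 1 of the 4 did. This was an intron of TGFA (chromosome 2, 70714616 to 70715047), 66.1 kb into the gene. The authors' score was 32.91, above 30.6% of its list and near the lowest score the list holds, 30. The nearest 30 min HP1γ peak was 318 kb from it. At 30 min the share of all genes was 50%, and 1 of the 4 had a peak, or 2 sites when AREGB is set beside AREG. At AREG the peak lay between genes, 19.4 kb past the gene's end (chromosome 4, 75340153 to 75340675, score 39.59, above 62.3% of its list). At AREGB it lay 24.0 kb past the end of the listed row (75510015 to 75510759, score 49.45, above 88.9%) and overlapped an exon of the antisense RNA AC142293.3. Both lay outside the duplicated segment, 16.7 kb and 16.8 kb beyond its end. From the AREG start the nearest HP1γ peak was 1207 kb away at 0 min and 29.3 kb at 30 min, with 95.5% and 30.9% of all genes nearer. The HP1γ lists held 351 peaks on chromosome 4 before hormone and 424 after it, while over all chromosomes they held 31845 and 23836.

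LSD1 had a peak in the window of 1 of the 4 genes at 0 min and of 0 at 30 min. The window held an LSD1 peak at 44.3% of all genes at 0 min and at 49.8% at 30 min. The 0 min peak lay 30.1 kb beyond the end of WNT4 (chromosome 1, 22413228 to 22413712, score 34.89, above 42.1% of its list). It overlapped an exon of the neighbouring gene CDC42, a small GTPase, whose start, 34.4 kb away, was the nearest of any coding gene. The next LSD1 site at 30 min was 157 kb from it. Chromosome 1 held 3408 LSD1 peaks at 0 min and 1869 at 30 min, and the whole lists, which also fell, held 34990 and 20495. From the TNFSF11 start the nearest LSD1 peak was 657 kb away at 0 min and 137 kb at 30 min, with 81.4% and 67.8% of genes nearer. From the TGFA start it was 541 kb and 512 kb away, with 78.2% and 93.6% nearer. The medians of all genes were 96.0 kb and 69.7 kb. These ranks and medians make no allowance for peak density, which was low on the chromosome of TGFA. Chromosome 2 held 1.09 LSD1 peaks per Mb at 0 min and 2.18 at 30 min, against 13.7 and 7.50 on chromosome 1.

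The receptors and partners of these ligands, taken from fixed lists, had H2A changes that, with 1 exception, stayed within 0.5. The counts stand beside the table as a whole, where 71.3% of genes read lower at 30 min, 61.2% at 60 min and 2.33% were past 0.5 at 30 min. In the RANK list 16 of 17 genes were found, and 11 (68.8%) read lower at 30 min, none past 0.5. The list median was -0.23, and -0.02 after the GC trend was taken off. The receptor gene TNFRSF11A had -0.19 (-0.04 off the trend). TNFRSF11B, which encodes the decoy receptor osteoprotegerin, had 0.00 (-0.13 off the trend). The list ran from the NF-κB subunit gene RELA at -0.50 (-0.20 off the trend) to MAP3K7, a kinase above NF-κB, at 0.30 (0.05). At 60 min 10 of the 16 read lower, with a median of -0.04 (0.00 off the trend).

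In the WNT list 24 of 38 genes (63.2%) read lower at 30 min, a smaller share than in the whole table, with a median of -0.14 (-0.01 off the trend). The receptor gene FZD2 had -0.51, the 1 gene of these lists past 0.5 at 30 min (counting standard error 0.15), and -0.17 off the trend. RSPO3, a potentiator of WNT signals, was highest at 0.23. The other Frizzled genes went both ways at 30 min, from FZD9 at -0.46 (-0.12 off the trend) to FZD3 at 0.21 (-0.01). FZD3, FZD6 and FZD7 read higher and the rest lower. The co-receptor gene LRP5 had -0.30 and its relative LRP6 had 0.10, at 54.6% and 38.6% GC, and both were within 0.02 of the trend. At 60 min 25 of 38 read lower, with a median of -0.03 (0.00 off the trend). Of the 18 other WNT ligands, 17 read lower at 30 min (median -0.24, off the trend 0.01), from WNT1 at -0.49 to WNT16 at 0.19. WNT4 at -0.21 thus lay inside the range of its family.

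In the EGFR list 9 of 16 genes (56.2%) read lower at 30 min, with a median of -0.09 (0.00 off the trend). EGFR itself had -0.16 and -0.01 off the trend, HRAS was lowest at -0.41 and ERBB4 highest at 0.31 (off the trend -0.07 and -0.01). The other 9 EGF family ligands were the 1 list with more genes higher than lower at 30 min (7 against 2, median 0.11), and off the GC trend the median was -0.01. They ran from HBEGF at -0.24 (0.01 off the trend) to EPGN at 0.28, with TGFA inside their range. AREG, which did not pass the RPKM filter, was at 0.29 (0.11 off the trend). Its interval, -0.10 to 0.69, spans much of that range, so its rank is uncertain. At 60 min 6 of 9 read higher, with a median of 0.02 (-0.02 off the trend). Of the 15 other TNF ligands 13 read lower at 30 min (median -0.12, -0.04 off the trend), from TNFSF14 at -0.38 to TNFSF13B at 0.23.

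**Figure D5:**
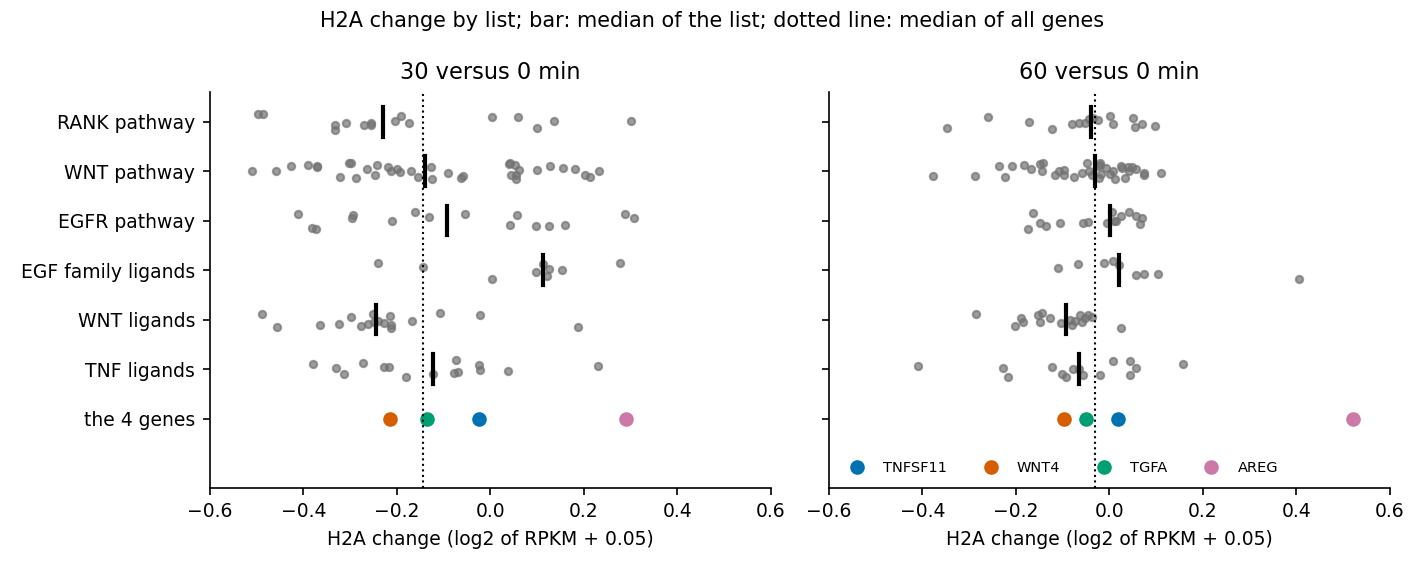
H2A change (log2 of RPKM plus 0.05) at 30 and 60 min of each gene in the 6 fixed lists (grey points, vertical jitter only), with list medians (bars), the median of all genes (dotted) and the 4 genes in colour. WNT ligands lie mostly left of 0 and EGF family ligands mostly right at 30 min. AREG, which is below the RPKM filter and is drawn without its interval, stands farthest right at 60 min.

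Peak counts differed widely among the receptor genes. EGFR held 11 LSD1 peaks at 0 min and 6 at 30 min, where density gives 5.95 and 2.94 in its 338 kb window, and 4 displaced BPTF peaks where it gives 0.819. TNFRSF11B held 7 LSD1 peaks at 0 min and 0 at 30 min (density 3.16 and 1.5), while its HP1γ peaks numbered 2 and 4. TNFRSF11A, the RANKL receptor gene, held 0 in all 6 lists, as did 20.8% of all genes, and density gives at most 0.361 in any 1 list there. Among TNF ligands 13 of 15 (86.7%) had an LSD1 peak at 0 min and 6 (40.0%) at 30 min, where all genes gave 44.3% and 49.8%. Among EGF family ligands the counts for LSD1 were 5 of 9 (55.6%) and 7 (77.8%), against the same 44.3% and 49.8%, and the window of EPGN held 0 at both times. Such shares make no allowance for window length. In this list NRG1, with a window of 1203 kb, held 1 LSD1 peak at 30 min where density gives 14.0. NRG3, with 1210 kb, held 15 where it gives 11.9. Among WNT ligands 13 of 18 (72.2%) had an HP1γ peak at 0 min and 7 (38.9%) at 30 min, where all genes gave 53.4% and 50%. These shares are a selection from the 6 lists. For HP1γ at 0 min all 6 were above 53.4%, from 55.6% in EGF family ligands upward, and TNF ligands had 66.7%, then 40.0% at 30 min. For LSD1 the RANK list had 31.25% at 0 min and the EGFR list 75.0% at 30 min. Genes of these lists are not independent, since neighbours share part of their windows, among them TNF, LTA and LTB, TNFSF9, CD70 and TNFSF14, WNT6 and WNT10A, WNT3 and WNT9B, WNT1 and WNT10B, and EPGN and EREG.

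The genes most like each member were sought among genes of at least 10 kb and a mean RPKM of at least 0.1. Likeness was the distance between their pairs of H2A changes at 30 and 60 min, over 3 libraries. PAXIP1OS and ENSG00000258790 were nearest to TNFSF11, DPCR1 and GTPBP1 to WNT4, and HIPK2 and PLXNC1 to TGFA, all within 0.01. These pairs are not distinctive, since 1421, 1447 and 1370 of 13789 genes lay within 0.05 of the 3 members. AREG had 1 gene within 0.05, CBWD5 at 0.04 (0.25 at 30 min and 0.53 at 60 min), followed by SPAG11A at 0.11. AREG itself was below both limits, with 16.2 reads per transcript at 0 min. Its 60 min interval, 0.11 to 0.94, is far wider than 0.05, so its few near genes do not show a distinctive course.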

How the data were processed

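Histone H2A, BPTF, HP1γ and LSD1 were profiled by ChIP-seq in T47D-MTVL cells, with groups taken from the sample titles and 1 library in each. The H2A values are RPKM that the authors computed with HOMER on both strands over GENCODE version 18, per the file headers. HOMER 4.7.2, Bowtie 1.0.0 and hg19 (GRCh37) are named in the submitters' processing notes. Each HP1γ or LSD1 peak has a score that the authors deposited, used here only to rank peaks within a list. The BPTF lists are positions as deposited by the authors, with no score. How reads with several equal matches were treated, how the score is defined, how peaks were called and what made a BPTF peak displaced or recruited are all not given in the sources used here. BPTF starts were read as counted from 0, as in BED files. No input library was analysed here.

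Read depth was recovered from single-transcript genes, where all of 21, 15 and 23 low values came out whole within 0.03 reads. Counting intervals (95%) used reads divided by the transcript number of GENCODE version 44 on GRCh37, which may differ from version 18. GC content came from GRCh37, and the GC trend was the median change in 50 bins of genes. Windows were gene bodies plus 50 kb, with an overlap of at least 1 bp. AREG and AREGB were aligned with BLAST 2.17.0, and positions unique in GRCh37 were found by exact matching of 36 and 50 bases on both strands. The calculations were tested on simulated data and used numpy 2.4.6 and pandas 2.3.3. Alternatives were pseudocounts of 0.01 and 0.5, centring, the GC trend, no filter, flanks of 5 and 100 kb, a score of at least 50, at least 0.5 of the peak inside, and AREG without AREGB, the last chosen after seeing the data.

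The members, lists and thresholds were chosen with earlier results of these data known. Named were the 4 genes, the EGF family neighbours of AREG, the direct receptors, the highest and lowest gene of each list at 30 min, the 2 nearest genes to each member, and every peak in the windows. MTHFD2L, NRG1, NRG3 and the ligands named for shared windows were named after their values were seen.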

Additional observations from a re-analysis of the deposited data

How the results depend on the processing

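The H2A changes were recomputed for TNFSF11, WNT4, TGFA and AREG in 3 comparisons. A pseudocount of 0.01 kept all 12 within their counting intervals, and one of 0.5 kept 11, AREG at 60 against 0 min coming to 0.10. With the GC trend taken off, 7 of 12 stayed within and 5 moved. WNT4 came to 0.10 at 30 against 0 min, 0.069 at 60 against 0 min and -0.036 at 60 against 30 min, and TGFA to -0.0093 at 30 against 0 min and -0.018 at 60 against 30 min. Centring on the median of all genes also moved 5. TNFSF11 came to 0.12 at 30 against 0 min and -0.045 at 60 against 30 min, WNT4 to -0.071 at 30 against 0 min, and TGFA to 0.0083 at 30 against 0 min and -0.0050 at 60 against 30 min. These shifts follow from subtracting the trend or the median. Without the filter on low values, each count of genes past 0.5 stayed within 1.5 times.

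For the peak lists, requiring at least 0.5 of the peak inside the window changed none of the 6 counts. With a flank of 5 kb, displaced BPTF peaks came to 0, HP1γ peaks at 30 min to 0 and LSD1 peaks at 0 min to 0, while the HP1γ peak of 0 min in TGFA was still counted. With a flank of 100 kb, 1 recruited BPTF peak (near TGFA) and 1 LSD1 peak at 30 min (near TNFSF11) were added. At a score of at least 50, HP1γ peaks at 0 and 30 min and LSD1 peaks at 0 min all came to 0. Shares of all genes were computed only for the 50 kb flank with no score limit. The counts at other flanks and scores therefore have no such share beside them and show only how the counts depend on the setting. Without AREGB, HP1γ peaks at 30 min fell from 2 to 1. No paired analysis was possible because each antibody and time had 1 library. For BPTF, HP1γ and LSD1 the read depth is unknown, which limits what an absent peak shows, and AREG is limited by its few reads.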
